A study of Komagataella phaffii with 102 samples.

Results

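Komagataella phaffii Y-11430 was grown in methanol and sequenced in 7 of the 102 RNA-seq libraries of the series, and these 7 libraries fell into a set of 3 and a set of 4. The sets were chosen by the measured level of a single gene, GQ67_04371. Its level is given in CPM, the reads of a gene per 1000000 reads counted in that library. Libraries A, C and F, with GQ67_04371 above 1000 CPM, are called set 1, and libraries B, D, E and G are called set 2. Because measured values formed the sets, every difference between them is a description without a test. Differences between groups were tested only in libraries that played no part in forming the sets.

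The series compares 11 K. phaffii strains as possible hosts for protein production. Y-11430 is a wild-type strain from the NRRL collection. All cultures began with 24 h in BMGY, a complex medium with 4% glycerol, in 24-well plates (24 h glycerol, 6 libraries of Y-11430). Cells were then moved for another 24 h either to fresh BMGY (48 h glycerol, 3 libraries) or to BMMY with 1.5% methanol (methanol, 7 libraries). These times follow the growth protocol, whereas a sample label of the Y-11430 methanol libraries gives 48 h of methanol. The libraries of both sets carry the same strain and condition labels and differ only in their letter. The labels give no plate, date or sequencing run, and they do not say whether 2 letters were separate cultures, so p-values measure only the spread between libraries, which may be technical. Tests used Y-12729, Y-48123 and Y-48124, which the study placed in one expression cluster with Y-11430 and which are called the reference strains here. They also used Cluster 2, its name for YB-4290, YB-4289, Y-7556 and YB-378, 4 strains in all. Y-48124 is an NRRL deposit of X-33, a strain derived from the Y-11430 mutant GS115. The study also tested Y-11430 against the reference strains and listed enriched gene sets at 24 h glycerol and in methanol.

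K. phaffii can live on methanol as its only carbon source. Methanol is oxidized to formaldehyde in peroxisomes, and the enzymes of this pathway and the peroxisomes themselves become very abundant in methanol and scarce in glycerol. The deposited tables name genes by GQ67 identifiers, and symbols could be given for a few genes only, so most genes are described by identifier, position and level.

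The 7 libraries held 3298076 to 3949523 counts each. Every pair of them differed by more than counting noise: the mean chi-square per gene, which is 1 when only counting noise is present, was 3.72 to 14.4 for the 9 pairs within a set and 33 to 71 for the 12 pairs between sets, so no library was a second copy of another. The share of TPM (transcripts per 1000000, scaled by gene length) that lay outside the 5116 listed genes also differed between the sets without overlap. It was 32.0% in A, 27.1% in C and 37.9% in F, against 19.4% in B, 21.6% in D, 21.7% in E and 13.2% in G. The part of this share in the differences between the sets was not tested.

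GQ67_04371 (chromosome 4, 163794 to 164816 in the authors' Y-11430 assembly, plus strand, 1 exon, coding length 1020 bases) was near the top of the transcripts of set 1. Its level was 12040 CPM in A, 17747 in C and 14852 in F, and 62.8 in B, 67.1 in D, 188.3 in E and 237.7 in G. The library just inside the threshold was thus A and the one just outside was G, and their levels lay 50.7-fold apart. By TPM the gene ranked 4 or 5 of all listed genes in set 1, and between 507 in G and 1852 in B in set 2. In glycerol it was at 6.54 to 12.3 CPM in the 6 Y-11430 libraries after 24 h and at 13.1 to 21.2 CPM in the 3 libraries after 48 h, the highest of these being the shallow library D with 9 reads of the gene.

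No library of any other strain or condition came near set 1. The highest level in the 99 libraries outside set 1 was 293.3 CPM, in Y-12729 methanol replicate C, which was 41.0-fold below the lowest library of set 1. The median over the 31 methanol libraries of the 10 other strains was 20.8 CPM, so the libraries of set 2 were themselves higher than most methanol libraries of the series.

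**Figure D1:**
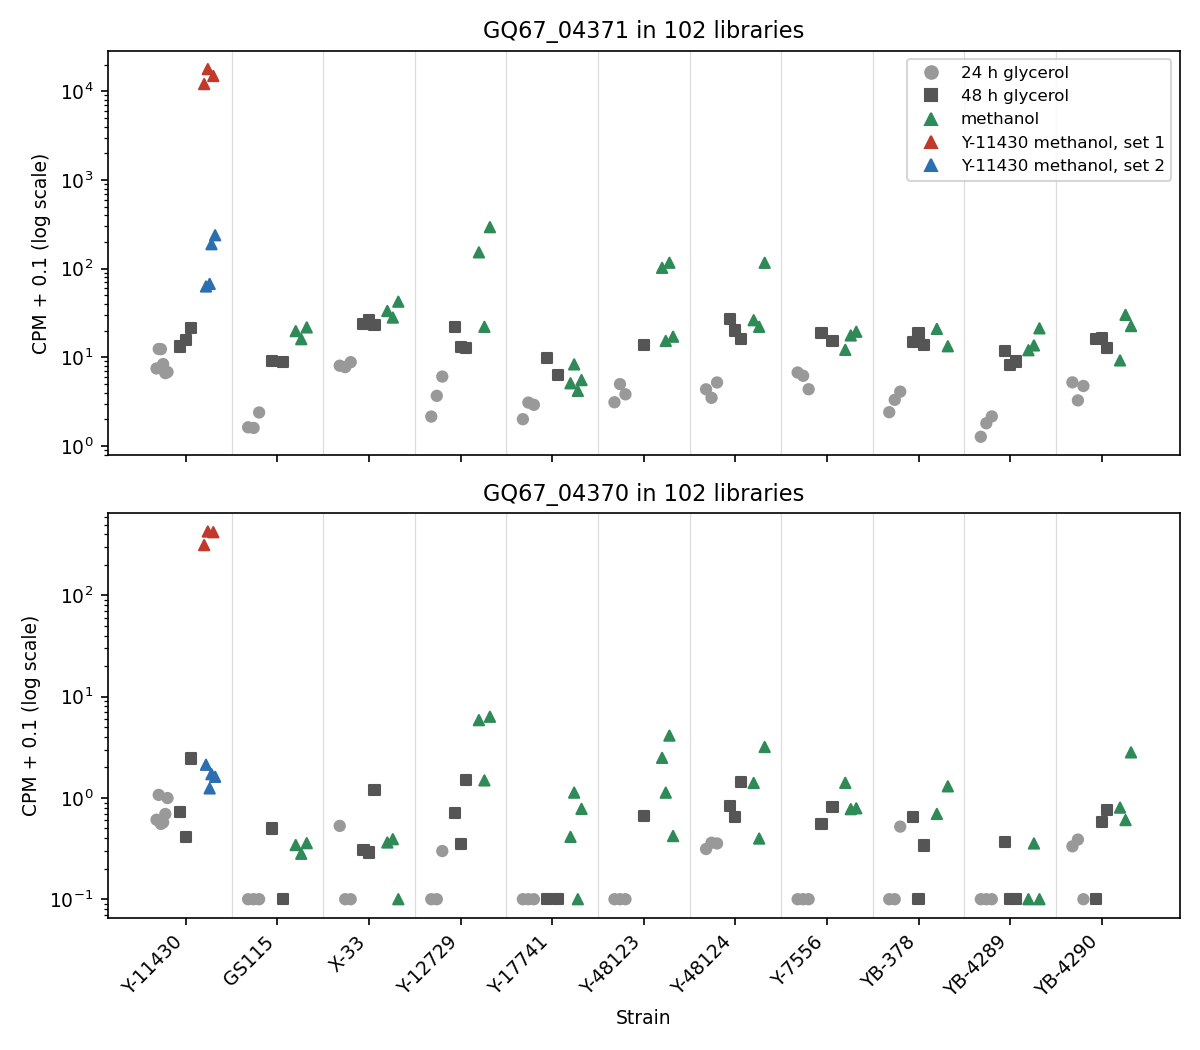
Level of GQ67_04371 (upper panel) and of its divergent neighbour GQ67_04370 (lower panel) in every library, as CPM + 0.1 on a log scale, by strain. Each symbol is 1 library, and only the 3 libraries of set 1 lie above 300 CPM in the upper panel, and the same 3 in the lower.

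The gene that differed most between the sets, apart from the gene of the rule, was its direct neighbour. GQ67_04370 (chromosome 4, 162559 to 163468, minus strand, coding length 774 bases) lies head to head with GQ67_04371, and the annotated transcripts start 325 bases apart. It was at 313.6 CPM in A, 426.9 in C and 420.6 in F. In B, D, E and G it was at 2.03, 1.14, 1.62 and 1.52 CPM, or 8, 4, 6 and 5 reads. The mean of set 1 was 246-fold that of set 2, a difference of 7.23 (SE 0.18, n = 3 and 4) in mean log2(CPM + 1), the scale used for all differences between the sets. The glycerol libraries of Y-11430 had 1 to 4 reads of GQ67_04370 each. At 24 h they were at 0.454 to 0.972 CPM, all below set 2, and at 48 h at 0.309 to 2.35 CPM.

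The other neighbours of the pair differed far less. On the far side of GQ67_04370, GQ67_04369 differed by 0.20 (SE 0.12), with overlapping ranges (65.9 to 84.8 CPM in set 1 and 57.0 to 69.1 CPM in set 2). On the far side of GQ67_04371, GQ67_04372 differed by 0.28 (SE 0.03), with 121.2 to 127.4 CPM against 98.0 to 103.3 CPM, and GQ67_04373 by -0.38 (SE 0.14).

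**Figure D2:**
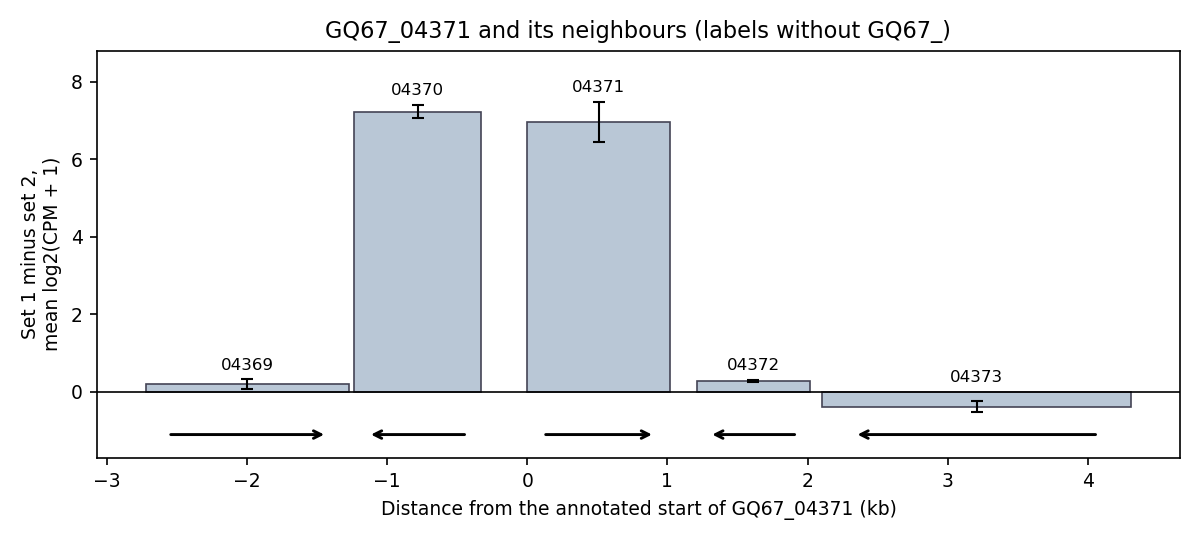
Difference between the sets (mean log2(CPM + 1) of set 1 minus that of set 2, with its SE over 3 and 4 libraries) for GQ67_04371 and 2 neighbours on each side. Bars span the annotated transcripts at their distance in kb from the start of GQ67_04371 and arrows give the strand, and the divergent pair stands at 6.96 and 7.23, its neighbours between -0.38 and 0.28.

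The sets differed in many more genes, by smaller amounts. In a principal component analysis of the 7 libraries over the 4855 genes with a mean of at least 5 CPM, GQ67_04371 left out, the first component held 65.0% of the variance. Set 1 lay at 11.4 (A), 23.6 (C) and 20.8 (F) on it, and set 2 between -16.4 and -12.0. Library A was the member of set 1 nearest to set 2. Correlations across genes were 0.984 to 0.989 within set 1, 0.985 to 0.992 within set 2 and 0.954 to 0.970 between the sets.

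A gene was counted as apart when every library of one set lay beyond every library of the other and the means differed by at least 1 on the log2 scale. There were 42 genes higher in set 1 (0.865% of the 4855) and 139 genes lower (2.86%), and since the sets were made from these libraries nothing is read from these shares. Most differences were close to the limit, with medians of 1.29 and -1.14, and only 9 genes were higher and 4 lower by at least 2. Without a minimum difference, the ranges of 542 genes lay higher and those of 1441 genes lower in set 1. The balance of directions depended on the scaling. The median gene differed by -0.12 with CPM, by -0.01 with TMM-scaled library sizes (edgeR's correction for composition) and by -0.40 with the deposited TPM, and the counts of apart genes were 54 higher and 83 lower with TMM and 21 higher and 366 lower with TPM. Higher genes thus made up 23.2% of the apart genes with CPM, 39.4% with TMM and 5.43% with TPM. There were 21 higher and 82 lower genes apart under all 3 scalings, among them each of the 24 genes named for their differences in the next paragraphs.

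**Figure D3:**
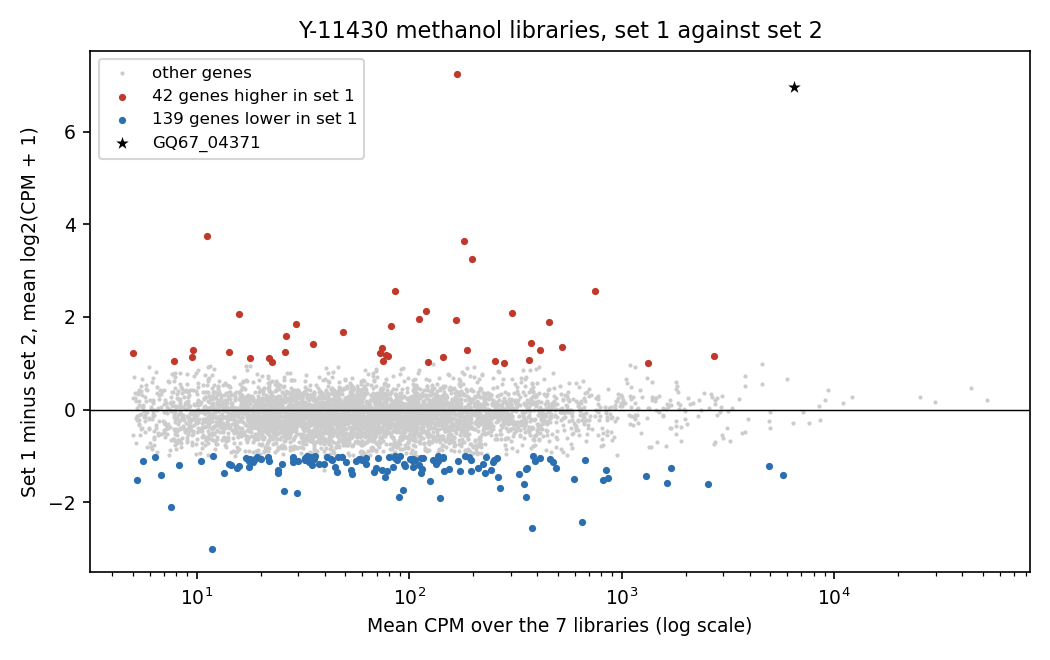
Difference between set 1 and set 2 (mean log2(CPM + 1)) against the mean CPM of the 7 libraries on a log scale, 1 point per gene with a mean of at least 5 CPM. Red and blue points are the 42 genes higher and the 139 genes lower in set 1, grey points all others and the star GQ67_04371, which was used to form the sets. GQ67_04370 lies at 7.23 and the grey points centre on -0.12.

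The strongest of the other genes higher in set 1 were nearly silent or low in set 2. GQ67_02302 (chromosome 1, minus strand) was at 13.1 CPM in A, 49.6 in C and 12.7 in F, and at 0.30 to 1.08 in set 2, a difference of 3.75 (SE 0.64) in which C lay far above A and F. GQ67_02407 (chromosome 1, minus strand) was at 315.4, 394.2 and 433.9 CPM in A, C and F and at 24.8 to 37.4 in set 2, which is 12.8-fold by the means and 3.64 (SE 0.19) on the log2 scale. GQ67_02866 (chromosome 1, plus strand) was at 332.1, 417.0 and 466.8 CPM against 29.1 to 55.5 CPM, a difference of 3.25 (SE 0.25). Both of these genes were also low in glycerol, where GQ67_02407 was at 9.41 to 19.3 CPM and GQ67_02866 at 1.36 to 6.79 CPM in the Y-11430 libraries of both times.

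GQ67_03951 lies in a run of 3 genes that were higher in set 1. It was at 1206, 1517 and 1544 CPM in A, C and F and at 196.2 to 284.7 in set 2 (difference 2.56, SE 0.18). The next genes on the same strand of chromosome 3 differed in the same direction: GQ67_03952, whose annotated transcript overlaps that of GQ67_03951 by 13 bases, by 1.88 (SE 0.15) and GQ67_03953 by 1.33 (SE 0.13). Reads in the overlap of GQ67_03951 and GQ67_03952 could have been assigned to either. In Y-11430 after 48 h glycerol, GQ67_03951 was at 168.8 to 207.0 CPM and GQ67_03952 at 190.6 to 209.1 CPM, close to set 2.

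Other genes higher in set 1 had their highest level in glycerol, so that set 2 was the set farther from glycerol. GQ67_01039 (chromosome 2) was at 148.5, 191.3 and 150.3 CPM in A, C and F and at 19.4 to 37.3 CPM in set 2 (difference 2.56, SE 0.26), and at 287.6 to 480.0 CPM in the Y-11430 glycerol libraries. GQ67_01720 was at 169.3 to 209.2 CPM in set 1, 43.4 to 53.7 CPM in set 2 and 215.5 to 639.9 CPM in glycerol. GQ67_04563 was at 27.8 to 29.2 CPM, 5.16 to 7.71 CPM and 67.8 to 443.8 CPM in the same groups. GQ67_01139 was at 177.4 to 236.9 CPM in set 1, 33.7 to 64.6 CPM in set 2 and 135.0 to 651.2 CPM in glycerol. The remaining named genes were GQ67_03028 (difference 2.09, SE 0.22), whose coding length of 7305 bases is far above the median of the list, and GQ67_00217 (1.93, SE 0.11), which was at 6.13 to 21.2 CPM in glycerol.

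Among the genes lower in set 1, GQ67_03110 (chromosome 3, plus strand) differed most of those with a mean of at least 20 CPM in the higher set. It was at 131.2 CPM in A, 67.5 in C and 105.3 in F, and at 671.2, 679.6, 511.2 and 480.0 in B, D, E and G, which is 5.78-fold higher in set 2 by the means (difference -2.55, SE 0.31). GQ67_03361 was at 200.3, 167.6 and 176.5 CPM in A, C and F and at 1326, 875.0, 1039 and 765.6 in set 2 (difference -2.43, SE 0.19). For GQ67_03361 set 1 was near the glycerol level of Y-11430 (84.6 to 268.2 CPM), whereas for GQ67_03110 glycerol levels were as high as set 2 after 24 h (493.0 to 744.3 CPM) and as low as set 1 after 48 h (65.8 to 101.2 CPM).

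Lower genes whose mean in set 2 did not reach 20 CPM included the largest difference of the list, chosen for mention after their values were seen. GQ67_04640 was at 0.779 to 2.08 CPM in set 1 and 13.2 to 23.4 CPM in set 2 (difference -3.00, SE 0.31), and GQ67_00921 at 0.893 to 2.72 and 10.6 to 12.7 CPM (-2.11, SE 0.32). The remaining lower genes differed by less than 2 on the log2 scale. GQ67_01391 was at 38.2 to 64.3 CPM in set 1 and 166.6 to 263.2 CPM in set 2 (difference -1.92, SE 0.27), GQ67_00926, with a coding length of only 366 bases, at 25.7 to 39.5 and 93.7 to 169.7 CPM (-1.89, SE 0.27), and GQ67_01873 at 103.8 to 219.3 and 449.0 to 592.2 CPM (-1.89, SE 0.35). GQ67_01233 was low in both sets, at 8.45 to 14.3 and 37.2 to 49.1 CPM (-1.80, SE 0.23), but at 374.1 to 874.6 CPM in glycerol. GQ67_04699, GQ67_03410, GQ67_04910, GQ67_01022, GQ67_04506 and GQ67_04949 followed with differences between -1.77 and -1.58, of which GQ67_04506 (949.3 to 1451 CPM against 3359 to 3762 CPM) and GQ67_04949 (540.7 to 1171 CPM against 1854 to 2797 CPM) had the highest CPM. Library A again lay between the other members of set 1 and set 2: it was the member of set 1 nearest to set 2 for 111 of the 139 lower genes and for 27 of the 42 higher genes. Without A, 221 genes were lower in set 1 by the same rule.

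**Figure D4:**
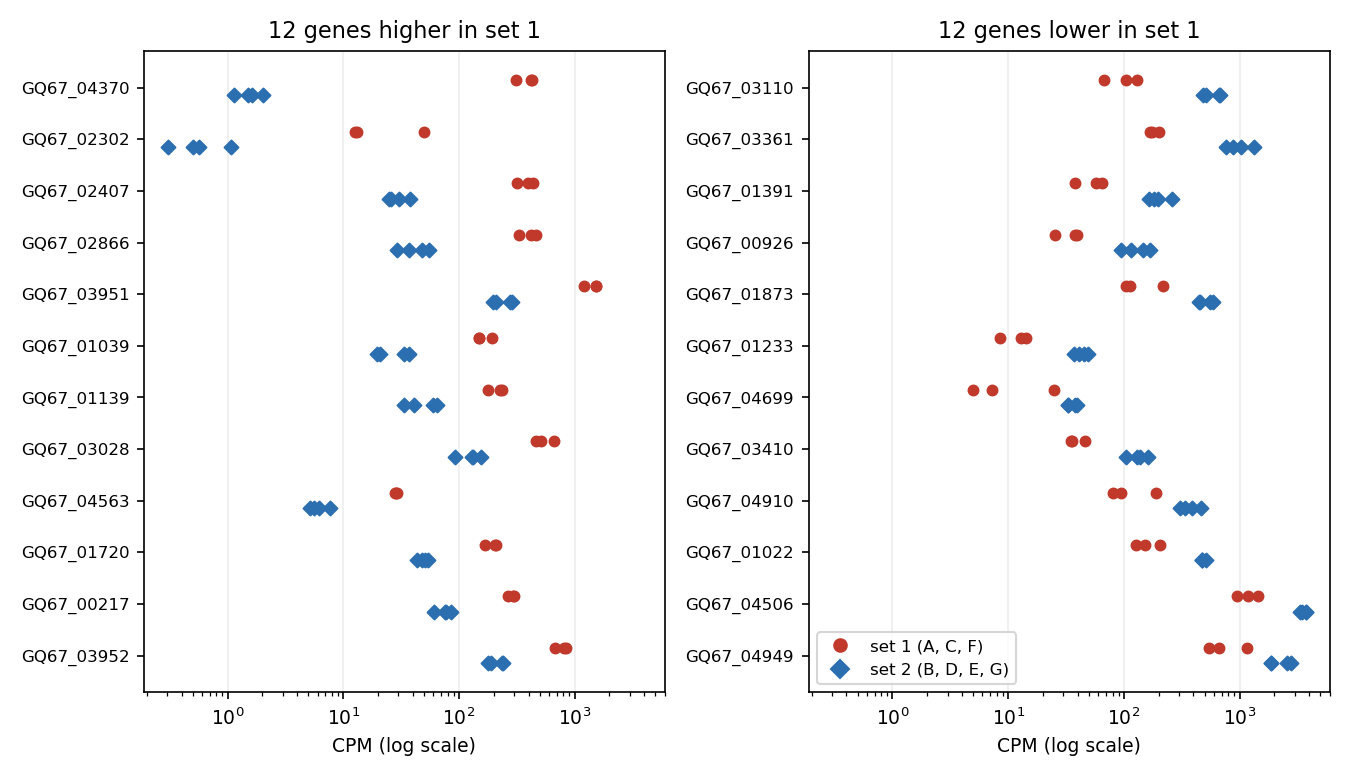
CPM on a log scale of the 12 genes with the largest difference in each direction among those with a mean of at least 20 CPM in the higher set, left higher and right lower in set 1. Each symbol is 1 library, red circles for set 1 and blue diamonds for set 2. No red symbol overlaps the blue range of its gene, and the 2 sets of GQ67_04370 lie more than 100-fold apart.

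Several of the genes higher in set 1 were neighbours. With GQ67_04371 included, 11 of them lay in 6 adjacent pairs, of which 3 were divergent: GQ67_04370 with GQ67_04371, GQ67_02407 with GQ67_02408 (difference 1.60, 950 bases apart) and GQ67_01138 (difference 1.79) with GQ67_01139, 352 bases apart. GQ67_01721 and GQ67_01720 lay in tandem, as did the 3 genes from GQ67_03951 to GQ67_03953. The 139 lower genes held 8 adjacent pairs with 14 genes. How many adjacent pairs lists of these sizes would hold among the 4855 genes was not counted, so nothing is read from the numbers of pairs. None of the 42 higher genes and 2 of the 139 lower genes (1.44%) had more than 1 exon, against 4.82% of the 4855 genes compared. Median coding lengths were 1328 and 1623 bases in the 2 lists and 1251 bases over all genes.

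The 10 genes with the highest mean CPM differed by -0.22 to 0.47 and none was apart. GQ67_05214 was at a mean of 56996 CPM in set 1 and 48971 CPM in set 2 (0.22, SE 0.11). Of 20 genes that the study listed for their weight in a principal component analysis, the ranges of 10 overlapped, 3 lay wholly above in set 1 and 7 wholly below. Over all 4855 genes compared, 542 lay wholly above and 1441 wholly below. By the rule with a minimum difference 1 was apart in each direction, against 0.865% higher and 2.86% lower over all genes: NIT1 (named for a nitrilase of Saccharomyces cerevisiae), at 23.8, 34.5 and 39.2 CPM in A, C and F and 13.1 to 17.0 CPM in set 2 (1.02, SE 0.22), and YFL040W, at 42.8 to 71.1 CPM against 101.9 to 143.8 CPM (-1.17, SE 0.24). FRE1, a ferric reductase in S. cerevisiae, was lower in each library of set 1 (664.8 to 718.3 CPM) than in set 2 (928.1 to 1023 CPM), by -0.47 (SE 0.05), and ZPS1 by -0.95 (SE 0.24). The ranges of PDR12, a weak acid exporter in S. cerevisiae, and of FLO11-BSC1 overlapped. Of 5 genes that carry a variant in some of the other strains, those of HIS4, SMC3, SEF1 and RVB1 overlapped and RSF2 was lower in set 1 by -0.26 (SE 0.07). The 7 genes of the linear plasmids summed to 43.1 to 110.7 CPM in set 1 and 30.6 to 58.7 CPM in set 2, with overlap.

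Libraries of the same letters were compared in a condition that did not enter the rule. At 24 h glycerol, A, C and F were set against B, D and E with edgeR over 4973 genes. There were 0 genes called (0.0% in each direction) at an adjusted p under 0.05 and a fold change of at least 2, none with DESeq2 and none without any one library, while 413 genes had an unadjusted p under 0.05. GQ67_04371 differed by 0.02 (SE 0.30, edgeR adjusted p = 0.996). Of the 42 genes higher in set 1, 40 could be tested, with 23 above and 17 below 0, a median of 0.04 and a range of -0.66 to 0.44. An unadjusted p under 0.05 was found for 12 of these 40 genes, beside the 413 of 4973 over all genes. Of the 139 lower genes, 138 could be tested, with 48 above and 90 below 0, a median of -0.06 against -0.01 over all genes, and 9 with an unadjusted p under 0.05. Over all 4973 genes tested, 2357 lay above and 2616 below 0. On simulated counts for this comparison, 199 of 200 changed genes were recovered. Log2 fold changes of all genes tested lay between -1.0 and 0.88. Recovery of differences of a fold of 2 or less was not tested, so the simulation does not cover changes of the size seen here. The labels do not say that a letter marks the same culture in 2 conditions.

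The reference strains were used to ask how the genes of both lists behave with carbon source and time. These contrasts average Y-12729 and Y-48124, and Y-48123, with 1 library at 48 h glycerol, entered only the estimate of the spread. Before these results it has to be said that in each reference strain 1 methanol library stood apart from the others. On an axis from the reference strains (0) to Cluster 2 (1) in methanol, drawn without the strain of the library itself, Y-12729 B lay at 0.60, Y-48123 C at 0.49 and Y-48124 C at 0.44, and the other 7 reference libraries between -0.25 and -0.04. The counts over both lists are therefore given with and without these 3 libraries, an alternative chosen after the data had been seen. Single genes whose call they change are given both ways for some genes but not for all. From 48 h glycerol to methanol, GQ67_02302 was at 1.42 (edgeR adjusted p = 0.0346) with them and 1.09 (adjusted p = 0.148) without. GQ67_04506 was at 2.55 (adjusted p = 0.0153) with them and 0.24 (adjusted p = 0.465) without.

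On the average of Y-12729 and Y-48124, GQ67_04371 rose both with time and with methanol. It rose from 24 h to 48 h glycerol by 2.44 on the log2 scale (SE 0.70, edgeR adjusted p = 0.00575) and again from 48 h glycerol to methanol by 2.52 (SE 0.65, adjusted p = 0.00341). Both rises held without the 3 libraries (2.44 and 2.10). GQ67_04370 rose in methanol by 2.11 (SE 0.74, adjusted p = 0.0258), and by 1.86 (adjusted p = 0.0246) without the 3 libraries, although its highest level in these strains was 6.23 CPM. With 1 library left out the log2 fold change of 2.11 fell to as little as 1.59 (edgeR adjusted p = 0.135). This rise, too, is an average. Y-48124 A and B had 1.305 and 0.297 CPM of GQ67_04370 in methanol, against 0.554 to 1.345 CPM at 48 h glycerol.

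Genes of the list higher in set 1 went both ways on methanol. Between 48 h glycerol and methanol, 14 of the 42 rose and 8 fell, with 10.8% of 5054 genes rising and 9.77% falling over all genes. The median log2 fold change of the 42 genes was 0.46, against 0.05 over all genes. GQ67_02866 rose by 4.59 (SE 0.79, edgeR adjusted p = 9.13e-05) and GQ67_00217 by 3.29 (SE 0.29, adjusted p = 2.64e-08), whereas GQ67_04563 fell by 3.70 (SE 0.49, adjusted p = 4.99e-06) and GQ67_01720 fell by 1.95 (SE 0.66, adjusted p = 0.0202). Without the 3 libraries these log2 fold changes were 5.13, 3.41, -3.28 and -1.40, each still called, and 17 of the 42 genes rose and 8 fell. Without Y-12729 methanol replicate C only 9 of the 42 genes rose. GQ67_02407 passed the test only without the 3 libraries (1.48, adjusted p = 0.000278, against 1.00 and 0.105 with them).

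The 139 genes lower in set 1 had 15 rising (10.8%) and 18 falling (12.9%), near the 10.8% and 9.77% of all genes, with a median of 0.04 against 0.05 over all genes. This count depended on the 3 libraries: without them 7 rose and 31 fell, against 9.07% and 9.51% of all genes, and the median was -0.44. Without Y-12729 methanol replicate B alone, 6 rose. GQ67_03110 rose by 3.44 (adjusted p = 0.00962) with them and was at 0.37 (adjusted p = 0.490) without them. GQ67_00926 was at 1.45 (adjusted p = 0.289) with them and fell by 2.11 (adjusted p = 0.00742) without them. GQ67_01233 fell by 6.59 (SE 0.93, edgeR adjusted p = 9.58e-06), and its log2 fold change was -6.74 without them. With time in glycerol, from 24 h to 48 h, 15.4% of all genes rose and 14.4% fell. Of the 139 lower genes 40 rose and 11 fell, and of the 42 higher genes 15 rose and 11 fell. Without the 3 libraries 43 of the lower genes rose and 12 fell, and 16 of the higher genes rose and 11 fell. Over all genes 15.9% then rose and 14.8% fell. GQ67_01391, GQ67_00926, GQ67_01873 and GQ67_03361 rose by 2.94 to 3.99, with adjusted p of 1.58e-06 to 0.00766 by edgeR. GQ67_01233 rose by 6.43 (adjusted p = 6.12e-06), while GQ67_03110 fell by 2.95 (adjusted p = 0.0159).

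In methanol, Cluster 2 was set against the reference strains, in a fit of 31 libraries without Y-11430. Since the study drew its clusters from the expression of these libraries, the contrast is no independent evidence that the strains differ. In this contrast 8.45% of 5041 genes were higher and 14.0% lower in Cluster 2. Of the 42 genes higher in set 1, 32 were lower in Cluster 2 and 2 were higher, with a median log2 fold change of -2.21 against -0.08 over all genes. Of the 139 genes lower in set 1, 48 were higher in Cluster 2 and 9 were lower, with a median of 0.62. Without the 3 reference libraries the counts were 35 lower and 2 higher of the 42 genes, and 71 higher and 8 lower of the 139 genes, with 13.2% of all genes higher and 17.3% lower.

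For single genes the contrast was large. GQ67_01039 was lower in Cluster 2 by a log2 of -5.89 (SE 0.88, edgeR adjusted p = 4.59e-06), GQ67_03952 by -4.81 (SE 0.65, adjusted p = 1.33e-06), GQ67_02866 by -4.05 (SE 0.58, adjusted p = 2.65e-06) and GQ67_03951 by -3.65 (SE 0.49, adjusted p = 1.10e-06). GQ67_04371 was lower by -2.34 (SE 0.45, adjusted p = 0.000109) and GQ67_04370 by -1.87 (SE 0.54, adjusted p = 0.00449), at levels of a few reads in most libraries. In the other direction, GQ67_04910 was higher by 2.76 (SE 0.45, adjusted p = 1.14e-05) and GQ67_00926 by 2.52 (SE 0.83, adjusted p = 0.0111). GQ67_03110 did not pass with all libraries (1.21, adjusted p = 0.139) but did without the 3 libraries (4.18, adjusted p = 1.11e-07). Without them GQ67_00926 was higher by 6.02 and GQ67_04910 by 4.08. GQ67_01391 went the other way and was lower in Cluster 2 by -2.56 (SE 0.26, adjusted p = 2.89e-08).

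**Figure D5:**
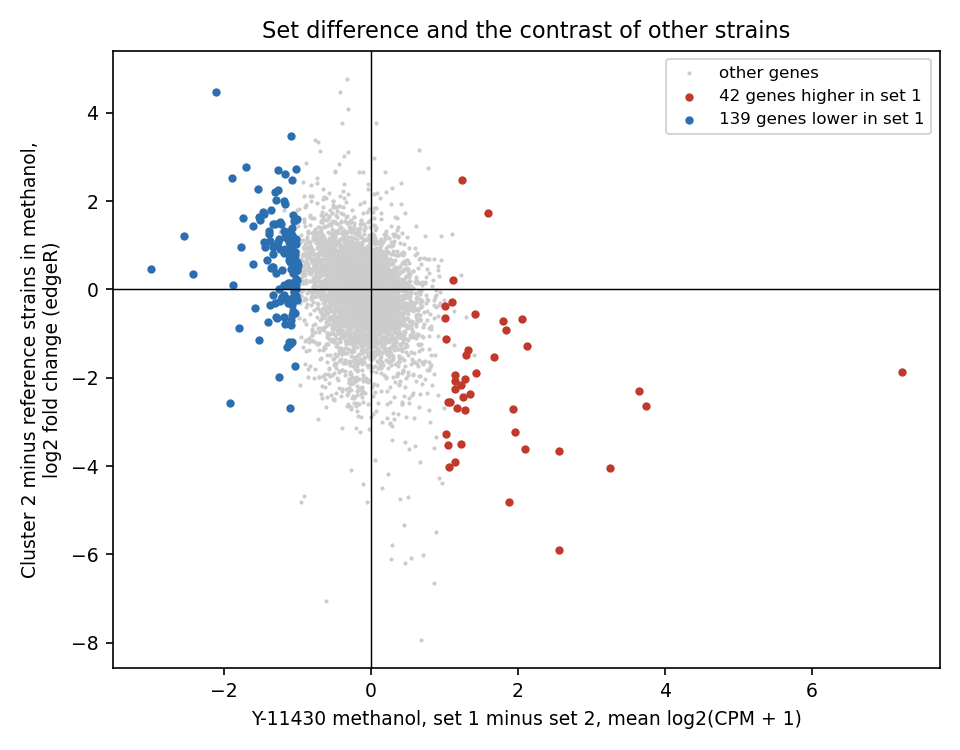
Log2 fold change of Cluster 2 minus reference strains in methanol (edgeR, 31 libraries without Y-11430) against the difference between set 1 and set 2 of Y-11430, 1 point per gene. Of the 42 genes higher in set 1 (red) 39 lie below 0 on the vertical axis, and of the 139 genes lower in set 1 (blue) 103 lie above it. The median over all genes on that axis is -0.08.

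Along the same axis the 2 sets took different places. Set 1 lay at -0.24 (A), -0.27 (C) and -0.27 (F) and set 2 between -0.14 and -0.11, while 7 of the 10 reference libraries lay between -0.25 and -0.04. With the 3 libraries that stood apart left out of the axis, set 1 lay at -0.02 (A), -0.03 (C) and -0.05 (F), set 2 between 0.08 and 0.10, and those 7 reference libraries between -0.03 and 0.14. On axes from 48 h glycerol to methanol (0.90 to 0.96 against 0.90 to 0.93) and from 24 h to 48 h glycerol (0.78 to 0.82 against 0.76 to 0.82) of the reference strains, the sets overlapped. On the axis to methanol drawn without the 3 libraries they did not, with 0.96 to 1.02 in set 1 and 0.92 to 0.95 in set 2. The genes compared here include those that separate the sets, so these gaps are a description.

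Single libraries of other strains differed from their own replicates in the direction of set 1 for some of these genes, with GQ67_04371 far below set 1. For GQ67_03951 the 2 libraries named next, Y-48123 A and Y-48124 A, lay between set 2 (196.2 to 284.7 CPM) and set 1 (1206 to 1544 CPM). Y-48123 methanol replicate A lay at -0.25 on the axis, with GQ67_03951 at 531.4 CPM and GQ67_03110 at 51.9 CPM, while its replicates B and D lay at -0.13 and -0.14, with 203.3 and 203.4 CPM of GQ67_03951 and 194.5 and 175.9 CPM of GQ67_03110. In this strain GQ67_04371 was at 102.0 CPM in A, 15.2 in B, 17.0 in D and 116.4 in C, the library toward Cluster 2. Y-48124 methanol replicate A lay at -0.24, with 428.7 and 35.9 CPM of GQ67_03951 and GQ67_03110, and its replicate B at -0.04, with 184.5 and 212.7 CPM. Here GQ67_04371 was at 26.1 CPM in A and 22 in B, and at 116.2 in C, again the library toward Cluster 2. In Y-12729 it was at 152.5 CPM in A and 293.3 in C, which lay at -0.21 and -0.25, and at 22 in B, toward Cluster 2. The share of TPM outside the listed genes was 40.5% in Y-48123 A and 35.9% in Y-48124 A, and 23.8%, 22.7% and 19.0% in Y-48123 B and D and Y-48124 B, but it was also 46.2% in Y-48123 C and 39.1% in Y-48124 C, toward Cluster 2. In Y-12729 it was 40.0% in A, 26% in B and 28.0% in C, and in GS115 16.8% to 21.6%. Its part in these levels was not tested. In GS115 all 3 methanol libraries, at -0.27 to -0.23, had high GQ67_02407 (79.1 to 263.8 CPM) and GQ67_02866 (258.1 to 290.9 CPM) with GQ67_04371 at 15.9 to 21.6 CPM. The other named genes of GS115 went both ways. GQ67_00217 (239.4 to 293.6 CPM), GQ67_01039 (173.7 to 203.3 CPM) and GQ67_04506 (938.4 to 1052 CPM) were near set 1. GQ67_02302 (1.55 to 3.64 CPM) and GQ67_03952 (82.9 to 290.9 CPM) were not. Nor was GQ67_03110, at 455.5 to 1321.5 CPM, and GQ67_01720 was at 20.9 to 43.0 CPM, below both sets. Likewise GQ67_02407 was near set 2 in Y-48123 A (39.25 CPM) and Y-48124 A (30.67 CPM).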

How the data were processed

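RNA was prepared as KAPA HyperPrep libraries and sequenced as paired-end reads. The authors aligned with STAR 2.5.3a and estimated abundance with RSEM 1.3.0, and deposited a table of expected counts, in which 100% of values were whole, and a table of log2(TPM + 1) for 5116 genes. The positions are those of the authors' deposited annotation of Y-11430.

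From these, CPM was computed on column sums and sets compared on log2(CPM + 1), without a test, for genes with a mean of at least 5 CPM. The expected counts were tested with edgeR 4.0.16 (TMM, filterByExpr, robust quasi-likelihood F test, two-sided, Benjamini-Hochberg adjustment over all genes tested). A gene was called at an adjusted p under 0.05 and a fold of 2. R 4.3.3, Python 3.11.15, numpy 2.4.6, scipy 1.17.1 and pandas 2.3.3 were used. Alternatives were DESeq2 1.42.0, other scalings, pseudocounts and limits, a replicate block and each library left out. Leaving out 3 reference libraries was added after the data were seen. On simulated counts, 199 of 200 changed genes were recovered for the 24 h glycerol comparison and 194 of 200 for reference strains on methanol. Recovery of differences below a fold of 2 was not tested.

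The members and lists were chosen with earlier results of these data known. Genes named were GQ67_04371 with 2 neighbours on each side, the 12 genes with the largest difference in each direction among those with a mean of at least 20 CPM in the higher set, the 10 genes with the highest CPM, genes the study paired with an identifier, genes at its variant positions and the plasmid genes as a sum. Neighbours of named genes that were also apart (GQ67_03953, GQ67_02408, GQ67_01138 and GQ67_01721) were named after their values were seen. HIS4 was placed by its variant's codon number, and RCR2 was not analysed here.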

Additional observations from a re-analysis of the deposited data

Results flagged for a closer look

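Single libraries were checked against the others of their group in 45 tests over genes and groups of 4 to 10 libraries, of which chance alone would mark about 1 in 20. In 3 of them 1 library lay far from the rest. GQ67_02302 in Y-11430 methanol had a gap of 0.74 of the group's range between replicate C, at 49.6 CPM, and the next library. That group is the 7 libraries from which the sets were made, so its gap spans both sets and is a description. GQ67_03361 at 24 h glycerol had a gap of 0.658 of the range below replicate B, at 193.1 CPM, and GQ67_01873 at 24 h glycerol a gap of 0.659 below the same replicate, at 200.3 CPM.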

How the results depend on the processing

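The sets were compared at 3298076 to 3949523 counts per library. With 42 higher and 139 lower genes as reported, a pseudocount of 5 CPM gave 86 lower genes, TMM scaling 83 lower, deposited TPM 21 higher and 366 lower, no minimum difference 542 and 1441, and a difference of at least 2 gave 9 and 4. With 1 library left out, higher genes ranged from 38 to 47 and lower genes from 100 to 221. In the reference strains on methanol, genes lower in set 1 numbered 15 called higher and 18 called lower, against 7 and 31 without the 3 libraries that stood apart. Without a fold minimum they numbered 23 and 31, with 2256 genes called in all. With 1 library left out, called higher ranged from 6 to 18 for this list and from 9 to 16 for the genes higher in set 1. For 48 h against 24 h glycerol, no fold minimum gave 2929 genes called and 20 of the lower list called lower. For Cluster 2 it gave 3023 genes called, with 79 of the lower list called higher and 16 called lower, and genes higher in set 1 called higher ranged from 1 to 2 with 1 library left out. GQ67_00926 on methanol was at -2.11 without the 3 libraries, against 1.45 with them. The cause of these shifts was not tested. Letters were not taken to pair libraries. Same-letter deviations correlated at -0.335 to 0.037 in Y-12729 and Y-48124, the strains of the blocked contrasts, and at -0.050 to 0.168 in Y-11430, where B, C and F exceeded 0.1 in at least 1 pair of conditions and A, D and E in none. With the replicate block, 927 genes were called on methanol in place of 1039, and 8 of the lower list were called higher in place of 15. The totals of genes called in this paragraph join both directions. They give no share for a list counted by direction, so nothing about the lists is read from these counts. The other 463 settings of the counts moved them by less than 1.5 times.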
